A study of Mus musculus with 6 samples.

Results

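A set of 10 C-type lectin receptor genes of myeloid cells was examined in granulocyte/macrophage progenitors (GMPs), marrow cells from which granulocytes and monocytes form. The genes were chosen by gene symbol as a family (Clec4a2, Clec4a3, Clec4d, Clec4e, Clec4n, Clec5a, Clec7a, Clec10a, Clec12a and Clec9a), at a time when earlier results of these same arrays were known. Their values in the 3 comparisons are therefore given as a description and support nothing by themselves. Of 45037 probe sets on the array, 11 carried the symbol of 1 of 8 of the 10 genes, and Clec12a and Clec9a had none under their symbols in the annotation table used. A further probe set that lists a member beside a second gene was left out. RNA had been taken from bone marrow cells of BL6 mice, sorted as negative for lineage markers, IL-7R and Sca1, positive for Kit and CD34 and high for Fc receptors II and III, with 2 arrays per genotype, each from 1 mouse per the labels. The IRF4/8DKO arrays came from a male and a female mouse of 16 weeks labelled as lacking both IRF4 and IRF8. The IRF8KO arrays came from a female of 12 weeks and a male of 22 weeks labelled as lacking IRF8 alone, and the WT arrays from a male of 12 weeks and a female of 19 weeks. The sources used here do not describe the alleles.

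C-type lectin receptors are cell surface proteins of macrophages, neutrophils and dendritic cells that recognise sugars and lipids of microbes and molecules released by damaged cells. Some activate the kinase Syk, either through a tyrosine motif of their own (dectin-1, encoded by Clec7a) or through the adaptors FcR-gamma (Fcer1g) and DAP12 (Tyrobp), and signal on through Card9, Bcl10 and Malt1 to inflammatory genes. Others carry an inhibitory tyrosine motif that recruits phosphatases, as DCIR (Clec4a2) does. IRF8 and IRF4 are transcription factors of blood cells that bind DNA with the ETS factor PU.1, and IRF8 is known for its part in the choice between the monocyte and the granulocyte fate.

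The values are dChip model intensities, in arbitrary units on a linear scale, and they carry no depth, so the number of arrays limits the precision. Median intensity was 37.5 and 34.1 on the IRF4/8DKO arrays, 38.6 and 38.4 on the IRF8KO arrays and 45.3 and 41.7 on the WT arrays. The first Irf8 probe set overlapped between genotypes, at 2611 and 4778 in IRF4/8DKO, 3811 and 2602 in IRF8KO, and 2588 and 3052 in WT. The second lay above WT on all 4 knockout arrays, at 934 and 1899.8 in IRF4/8DKO, 1333 and 1131 in IRF8KO, and 507 and 704 in WT. The first Irf4 probe set read 65.99 and 54.6 in IRF4/8DKO, 13.8 and 7.66 in IRF8KO, and 32.1 and 23.5 in WT, so it was above WT in the arrays labelled as lacking IRF4. The second overlapped, at 11.8 and 20.2 in IRF4/8DKO, 29.7 and 14.1 in IRF8KO, and 33.1 and 16.8 in WT. The lowest limma adjusted p over the 3 comparisons was 0.341 for Irf8 and 0.379 for Irf4. No source used here says where these probes lie relative to the deletions, so the signal does not check the genotype labels. All 8 GMP marker genes passed the filter on low values described next, and 0 of 8 passed the limma test in any comparison. Mpo lay within 12946 to 15417 on all arrays. Genes of the sort gate differed more. Cd34 read 590.3 and 509 in IRF4/8DKO, 440.3 and 669 in IRF8KO, and 1747 and 1401 in WT, a log2 difference of -1.50 ± 0.38 SE in IRF4/8DKO against WT (limma adjusted p = 0.213) and -1.51 ± 0.38 SE in IRF8KO against WT (limma adjusted p = 0.162). Fcgr3 read 2516 and 5863 in IRF4/8DKO, 2618 and 6315 in IRF8KO, and 1089.6 and 1259 in WT, a log2 difference of 1.70 ± 0.48 SE (limma adjusted p = 0.271) and 1.79 ± 0.48 SE (limma adjusted p = 0.177) in the same order. The part of these shifts in the members' values was not tested.

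Probe sets were tested where 2 or more of the 6 arrays read above that array's own 40th percentile. This kept 29783 probe sets, among them 9 of the 11 of this family, from 7 genes. Differences are limma estimates of log2(intensity + 10.5) with their standard error (SE), and they understate the change of dim probe sets. A probe set was called at an adjusted p under 0.05 over all 29783. In no comparison was a member called. In IRF8KO against WT 0 of 9 were called, where 0.0302% of all tested probe sets were. In IRF4/8DKO against WT 0 of 9 were called, against 0.299% of all, and in IRF4/8DKO against IRF8KO 0 of 9, against 0% of all. Unadjusted limma p lay under 0.05 for 4, 4 and 3 of the 9 in the same order of comparisons, beside 13.5%, 9.05% and 8.52% of all tested probe sets. Adjusted p of the members ran from 0.0975 to 0.897, from 0.0715 to 0.978 and from 0.482 to 0.984. None of the differences described here passed the test, and with 2 arrays per genotype a miss does not show that levels were alike.

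Clec4a2 encodes DCIR, a receptor with an inhibitory motif. Its first probe set, 1422013_at, read 922 and 1003 in IRF4/8DKO, 1040.1 and 829 in IRF8KO, and 129.7 and 235 in WT. Both knockout genotypes lay above WT with no overlap, and they overlapped with each other. The mean was 963 ± 57.3 in IRF4/8DKO, 934 ± 149 in IRF8KO and 182 ± 74.3 in WT (SD, n = 2 each). The log2 difference was 2.39 ± 0.42 SE in IRF4/8DKO against WT, or 5.24-fold, and 2.34 ± 0.42 SE in IRF8KO against WT, or 5.06-fold. Between IRF4/8DKO and IRF8KO it was 0.05 ± 0.42 SE.

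The second Clec4a2 probe set, 1425406_at, showed another pattern. It read 168 and 313 in IRF4/8DKO, 32.1 and 32.4 in IRF8KO, and 14.2 and 37.9 in WT. Only IRF4/8DKO stood apart here, while IRF8KO lay inside the WT range. Its log2 difference was 2.80 ± 0.49 SE in IRF4/8DKO against WT, or 6.94-fold, and 2.49 ± 0.49 SE in IRF4/8DKO against IRF8KO, or 5.62-fold. In IRF8KO against WT it was 0.31 ± 0.49 SE. The probe sets of this gene thus placed both knockout genotypes above WT in 1 case and IRF4/8DKO alone in the other, and no test of that disagreement was made.

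Clec4a3 encodes a related receptor of the DCIR family. Its probe set read 135 and 129 in IRF4/8DKO, 64.4 and 51.4 in IRF8KO, and 22.8 and 41.5 in WT. The 3 genotypes did not overlap and were ordered IRF4/8DKO, IRF8KO, WT. The log2 difference was 1.78 ± 0.42 SE in IRF4/8DKO against WT, or 3.43-fold. It was 0.71 ± 0.42 SE in IRF8KO against WT and 1.07 ± 0.42 SE in IRF4/8DKO against IRF8KO.

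Clec5a encodes MDL-1, an activating receptor that pairs with DAP12. It read 842 and 1952 in IRF4/8DKO, 493 and 744 in IRF8KO, and 69.7 and 349.8 in WT. The genotypes again did not overlap and had the same order. Arrays of 1 genotype differed by 2.32-fold in IRF4/8DKO, 1.51-fold in IRF8KO and 5.02-fold in WT, which was the widest spread among the tested members. Its log2 difference was 2.93 ± 0.71 SE in IRF4/8DKO against WT (7.61-fold), 1.86 ± 0.71 SE in IRF8KO against WT (3.62-fold) and 1.07 ± 0.71 SE in IRF4/8DKO against IRF8KO. The dim WT male array decided much of the size, and without it the difference was 1.84 in IRF4/8DKO against WT and 0.77 in IRF8KO against WT. Without the other WT array it was 4.01 and 2.94 in the same order.

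Clec7a encodes dectin-1, the receptor for fungal beta-glucan. It read 649 and 448 in IRF4/8DKO, 595 and 739 in IRF8KO, and 351 and 413 in WT. Every knockout array lay above both WT arrays, by a small margin for the IRF4/8DKO female, and the knockout genotypes overlapped. The log2 difference was 0.49 ± 0.40 SE in IRF4/8DKO against WT (1.40-fold) and 0.78 ± 0.40 SE in IRF8KO against WT (1.72-fold). It was -0.29 ± 0.40 SE in IRF4/8DKO against IRF8KO.

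Clec4e encodes Mincle, which binds mycobacterial cord factor and signals through FcR-gamma. Its first probe set, 1420330_at, read 113 and 69.25 in IRF4/8DKO, 40.4 and 47.1 in IRF8KO, and 131 and 121 in WT. The order here was WT, IRF4/8DKO, IRF8KO with no overlap. Its second, 1420331_at, read 31.2 and 27.0 in IRF4/8DKO, 6.70 and 8.83 in IRF8KO, and 25.5 and 24.8 in WT. Both probe sets put IRF8KO lowest, with log2 differences of -1.33 ± 0.42 SE and -0.97 ± 0.35 SE in IRF8KO against WT. In IRF4/8DKO against IRF8KO they were 0.87 ± 0.42 SE and 1.12 ± 0.35 SE. In IRF4/8DKO against WT they had opposite signs, -0.46 ± 0.42 SE and 0.15 ± 0.35 SE. The IRF8KO values of the second probe set lay below the pseudocount of 10.5, which limits the size of its difference, and it exceeded the 40th percentile on 3 of 6 arrays.

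Clec4d encodes MCL, the partner of Mincle at the cell surface. Its probe set, whose suffix marks probes shared with other transcripts, read 610.1 and 588 in IRF4/8DKO, 353 and 528 in IRF8KO, and 680.2 and 578 in WT. IRF8KO was lowest again, and IRF4/8DKO lay within the WT range. The log2 difference was -0.53 ± 0.40 SE in IRF8KO against WT and -0.06 ± 0.40 SE in IRF4/8DKO against WT. In IRF4/8DKO against IRF8KO it was 0.46 ± 0.40 SE. With median centring of the arrays the sign of the IRF4/8DKO against WT difference turned, to 0.16.

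Clec10a encodes the galactose-binding lectin MGL1. It read 129 and 169 in IRF4/8DKO, 159 and 80.8 in IRF8KO, and 80.8 and 119.7 in WT. IRF4/8DKO lay above WT, and IRF8KO overlapped both. Log2 differences were 0.54 ± 0.47 SE in IRF4/8DKO against WT, 0.19 ± 0.47 SE in IRF8KO against WT and 0.35 ± 0.47 SE in IRF4/8DKO against IRF8KO.

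Clec4n encodes dectin-2, a receptor for fungal mannan that signals through FcR-gamma. Neither of its probe sets passed the filter, and no array exceeded its 40th percentile. The first, 1419627_s_at, read 1 and 1.20 in IRF4/8DKO, 3.82 and 3.53 in IRF8KO, and 1 and 1 in WT. The second, 1425951_a_at, read 8.31 and 15.6 in IRF4/8DKO, 13.7 and 5.41 in IRF8KO, and 6.56 and 6.27 in WT. No difference was tested at these levels. Clec12a, an inhibitory receptor gene of granulocytes and monocytes, and Clec9a, a receptor gene of cross-presenting dendritic cells, had no expression values analysed here.

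**Figure D1:**
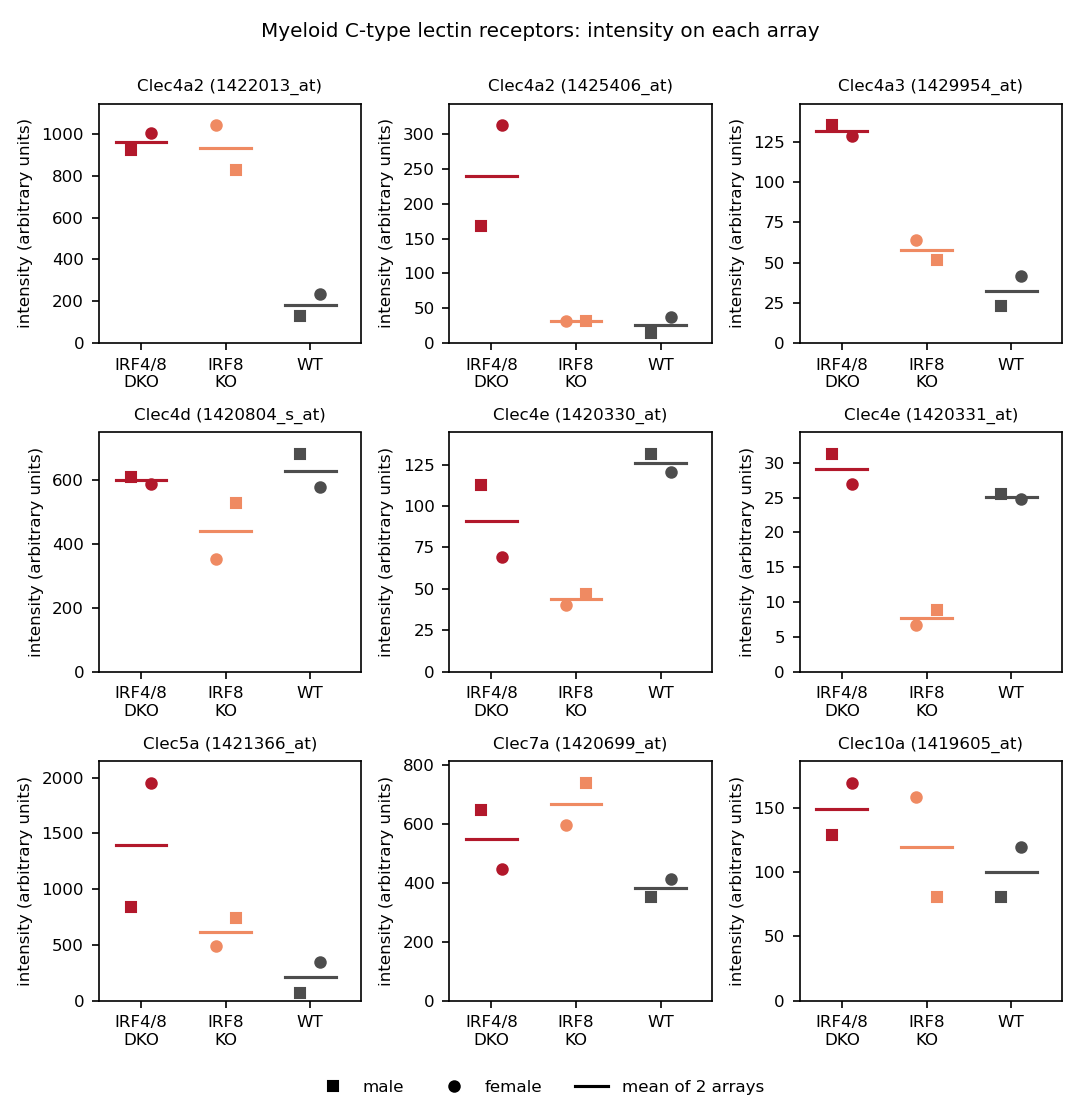
Intensity in arbitrary units (linear axis from 0) of the 9 tested probe sets on each array, with squares for male and circles for female mice and bars at the mean of 2 arrays. Clec4a2 (1422013_at) sits at 829 to 1040.1 in both knockout genotypes and at 129.7 and 235 in WT, while both Clec4e panels have their lowest arrays in IRF8KO.

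Counted over the 9 tested probe sets, both IRF8KO arrays lay above both WT arrays for 4 and below for 3, and 2 overlapped. Over all tested probe sets the shares were 19.8% above and 25.9% below. Both IRF4/8DKO arrays lay above both WT arrays for 7 members and below for 1, against 18.3% and 25.3% of all. Against IRF8KO, both IRF4/8DKO arrays were higher for 6 and lower for 0, against 19.3% and 17.3% of all. The median log2 difference of the members was 0.31 in IRF8KO against WT, 0.54 in IRF4/8DKO against WT and 0.87 in IRF4/8DKO against IRF8KO, beside -0.06, -0.04 and 0.02 over all tested probe sets. The comparisons share arrays, so their counts are not independent, and nothing is read from these counts because the genes were picked with the results known. Within a sex, each comparison rests on 1 array per genotype. The male and female differences had the same sign for 7 of 9 probe sets in IRF8KO against WT, 8 of 9 in IRF4/8DKO against WT and 8 of 9 in IRF4/8DKO against IRF8KO. For Clec5a in IRF8KO against WT they were 3.23 between males and 0.48 between females, and for Clec4a2 by its first probe set 2.58 and 2.10.

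**Figure D2:**
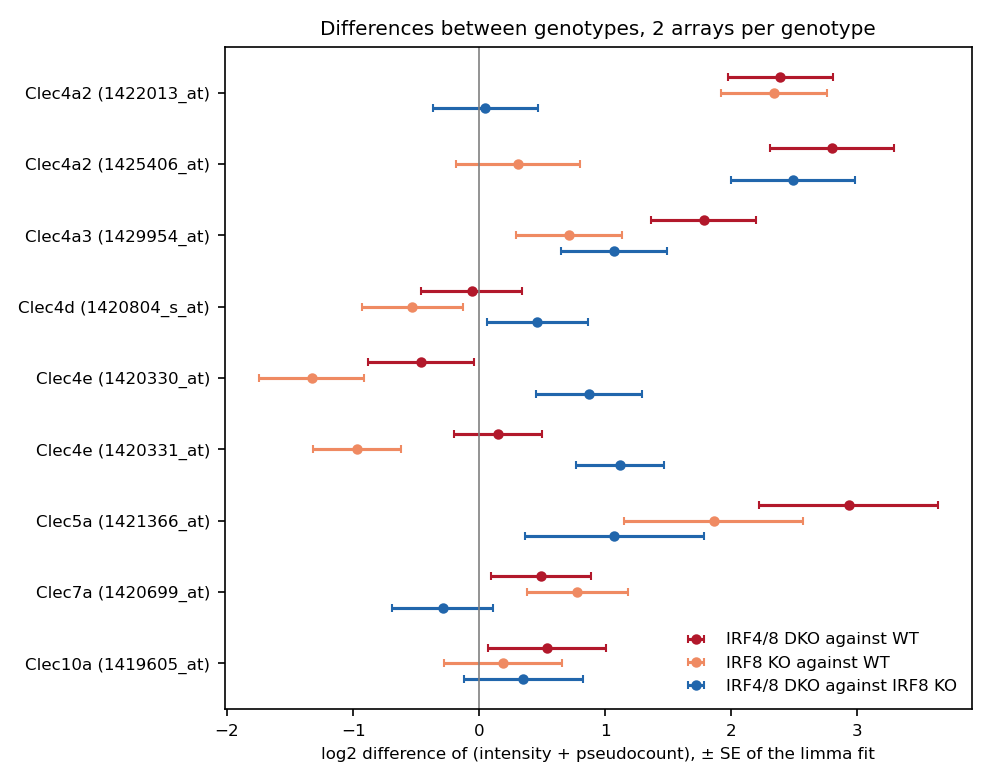
Log2 difference of (intensity + pseudocount) for the 9 tested probe sets in the 3 comparisons, as points with bars of 1 SE of the limma fit, with 2 arrays per genotype. Clec4a2, Clec4a3 and Clec5a lie to the right of 0 in IRF4/8DKO against WT (1.78 to 2.93), and both Clec4e probe sets lie left of 0 in IRF8KO against WT (-1.33 and -0.97), none past the test.

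Of the 10 genes 9 lie on mouse chromosome 6 and Clec10a lies on chromosome 11 (RefSeq, GRCm38.p6). Clec4a3, Clec4a2, Clec4n, Clec4d and Clec4e form a cluster of 337.4 kb at chr6:122952515-123289871, with Clec4a3 and Clec4a2 at 1 end and Clec4d and Clec4e at the other. Clec12a, Clec9a and Clec7a lie within 123.0 kb at chr6:129349783-129472785, and Clec5a stands alone at chr6:40574898-40585805.

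The 250 bases before the RefSeq start (GRCm38.p6) are shown for 4 genes, Clec4a2 and Clec5a as those with the widest differences from WT, Clec7a for its match to a joint ETS and IRF motif, and Clec4e as the gene lowest in IRF8KO. Capitals mark matches on either strand to GGAANNGAAA (an ETS core beside an IRF core), GAGGAA (a core bound by PU.1) or TTGCNNAA (a C/EBP type site). The first and second motif share the letters GGAA and can overlap.
Clec4a2, chr6:123122440-123122689, plus strand: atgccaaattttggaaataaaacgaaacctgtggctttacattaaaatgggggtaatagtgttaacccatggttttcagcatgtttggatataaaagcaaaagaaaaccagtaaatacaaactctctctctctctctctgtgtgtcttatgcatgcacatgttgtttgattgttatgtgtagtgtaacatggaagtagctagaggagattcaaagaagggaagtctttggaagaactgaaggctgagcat
Clec5a, chr6:40585806-40586055, minus strand: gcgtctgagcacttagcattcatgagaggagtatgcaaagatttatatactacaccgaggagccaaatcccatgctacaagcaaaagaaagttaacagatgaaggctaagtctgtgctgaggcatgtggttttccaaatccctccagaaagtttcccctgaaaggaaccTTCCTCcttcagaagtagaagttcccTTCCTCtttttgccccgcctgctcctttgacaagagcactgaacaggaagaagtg
Clec7a, chr6:129472780-129473029, minus strand: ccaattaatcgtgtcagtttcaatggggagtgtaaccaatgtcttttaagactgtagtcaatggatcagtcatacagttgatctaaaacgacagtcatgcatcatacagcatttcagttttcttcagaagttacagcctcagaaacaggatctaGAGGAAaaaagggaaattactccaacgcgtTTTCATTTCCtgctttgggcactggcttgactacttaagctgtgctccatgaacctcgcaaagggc
Clec4e, chr6:123289872-123290121, minus strand: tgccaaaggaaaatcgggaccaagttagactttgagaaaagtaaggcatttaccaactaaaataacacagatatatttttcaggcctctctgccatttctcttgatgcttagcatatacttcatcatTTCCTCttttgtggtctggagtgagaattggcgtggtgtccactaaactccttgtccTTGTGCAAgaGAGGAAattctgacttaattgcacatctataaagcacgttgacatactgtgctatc

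Promoters of 8 members were in the table, counted at the first start listed for each gene. GGAANNGAAA was found in 1 of the 8, Clec7a, where it begins 66 bases before the start, and in 2.38% of 27025 promoters of the same length. GAGGAA was found in 5 of 8 (Clec5a, Clec7a, Clec4d, Clec4e and Clec12a) and in 23.1% of all. TTGCNNAA was found in 2 of 8 (Clec4e and Clec12a) and in 9.55% of all, and a tandem of IRF cores, GAAANNGAAA, in 0 of 8 and 3.04% of all. The shares over all promoters left out those of 1 chromosome, on which no member lies. Clec4a2 and Clec4a3 held no match at the starts counted. At a second start listed for Clec4a3, which was not counted, GAGGAA was matched 50 bases before the start. A match is a description of letters and no measurement of binding.

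The adaptors and kinases through which these receptors signal were taken from a list of 16 genes, of which 12 were tested. None passed the limma test in any comparison, and 3, 3 and 1 had an unadjusted p under 0.05 in IRF8KO against WT, in IRF4/8DKO against WT and in the knockout genotypes against each other, beside 13.5%, 9.05% and 8.52% of all. Tyrobp, the DAP12 adaptor used by MDL-1, read 7358 and 9929 in IRF4/8DKO, 7210.1 and 8222 in IRF8KO, and 4597 and 4386 in WT. Its log2 difference was 0.93 ± 0.19 SE in IRF4/8DKO against WT (limma adjusted p = 0.125) and 0.78 ± 0.19 SE in IRF8KO against WT (limma adjusted p = 0.159). Fcer1g, the adaptor of Mincle, MCL and dectin-2, read 2405 and 4914 in IRF4/8DKO, 2977 and 3637 in IRF8KO, and 1581 and 1256 in WT. Both adaptors lay above WT on every knockout array, at 1.28 ± 0.36 SE in IRF4/8DKO against WT for Fcer1g (limma adjusted p = 0.265) and 1.22 ± 0.36 SE in IRF8KO against WT (limma adjusted p = 0.207).

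Syk, the kinase shared by the activating receptors, had 4 tested probe sets. The one shown read 829 and 950.1 in IRF4/8DKO, 745 and 2284 in IRF8KO, and 1047 and 1219.8 in WT. IRF8KO and WT overlapped, while both IRF4/8DKO arrays lay below both WT arrays, at a log2 difference of -0.35 ± 0.50 SE. Plcg2, the phospholipase below Syk, read 1282 and 3572 in IRF4/8DKO, 2203 and 6173 in IRF8KO, and 1783 and 1415 in WT. Src, a dim gene here, read 2.85 and 1.45 in IRF4/8DKO, 51.3 and 51.5 in IRF8KO, and 17.7 and 12.3 in WT. Its log2 difference was -2.29 ± 0.36 SE in IRF4/8DKO against IRF8KO (limma adjusted p = 0.364). Src passed the filter only through the IRF8KO arrays, where it was highest, so its differences support nothing by themselves. It is among the genes counted above at an unadjusted p under 0.05 in every comparison. Between the knockout genotypes it is the only gene counted. Of the guanine nucleotide exchange factors, Vav1 lay at 0.50 ± 0.33 SE in IRF4/8DKO against WT and Vav3 at 0.36 ± 0.27 SE in IRF4/8DKO against IRF8KO.

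Of the phosphatases that inhibitory receptors recruit, Ptpn6 (SHP-1), Ptpn11 (SHP-2) and Inpp5d (SHIP1) were all tested and 0 of 3 passed in any comparison. No unadjusted limma p lay under 0.05 for them. Ptpn6 read 1519 and 3990.1 in IRF4/8DKO, 1741 and 2628 in IRF8KO, and 1153 and 1658 in WT, at a log2 difference of 0.83 ± 0.46 SE in IRF4/8DKO against WT and 0.63 ± 0.46 SE in IRF8KO against WT. Inpp5d overlapped between each knockout genotype and WT, and Ptpn11 lay at -0.37 ± 0.25 SE in IRF8KO against WT.

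**Figure D3:**
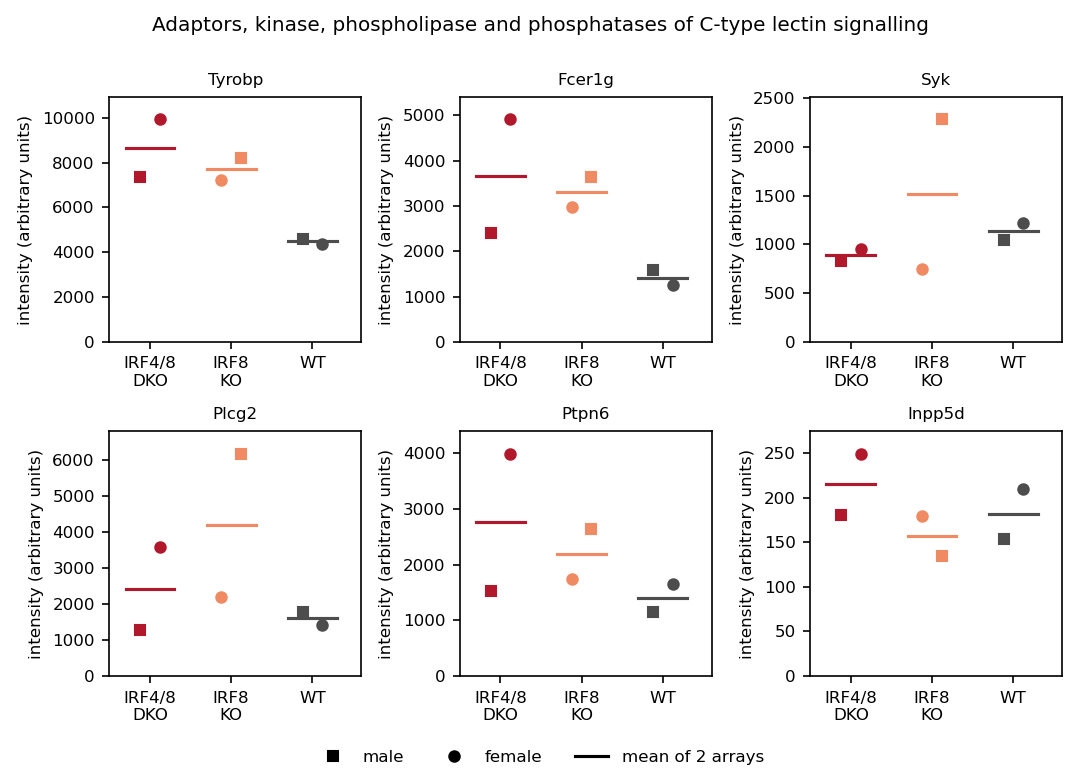
Intensity in arbitrary units (linear axis from 0) of 6 signalling partners of the receptors on each array, with squares for male and circles for female mice and bars at the mean of 2 arrays. Tyrobp and Fcer1g lie above both WT arrays on all 4 knockout arrays, and Syk does not.

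Inflammatory genes that lie downstream of these receptors were taken from a list of 17, of which 13 were tested. None passed the limma test, with 2 at an unadjusted p under 0.05 in IRF8KO against WT, 2 in IRF4/8DKO against WT and 0 between the knockout genotypes. With 13 genes tested, these counts stand beside 13.5%, 9.05% and 8.52% of all tested probe sets. Cxcl2, a neutrophil-attracting chemokine gene, read 39.5 and 23.1 in IRF4/8DKO, 15.6 and 17.4 in IRF8KO, and 92.1 and 171 in WT. All 4 knockout arrays lay below both WT arrays, at a log2 difference of -2.34 ± 0.44 SE in IRF8KO against WT (limma adjusted p = 0.0988) and -1.74 ± 0.44 SE in IRF4/8DKO against WT (limma adjusted p = 0.211). Ptgs2, the inducible cyclooxygenase gene, lay at -0.96 ± 0.41 SE in IRF8KO against WT, and Egr2, an early response transcription factor gene, at 1.22 ± 0.45 SE in IRF4/8DKO against WT. Casp1, the inflammasome protease gene, lay at 0.72 ± 0.36 SE in IRF4/8DKO against IRF8KO. Rel, an NF-kappaB subunit gene, lay at 0.74 ± 0.48 SE and the early response gene Egr3 at -0.63 ± 0.46 SE in IRF8KO against WT. Il23a lay at -0.94 ± 0.42 SE in IRF4/8DKO against WT, and Tnf at -0.95 ± 0.56 SE in IRF4/8DKO against IRF8KO, both genes of inflammatory cytokines.

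Other C-type lectin genes were taken from a list of 37, of which 34 had a probe set and 15 were tested. None passed the limma test in any comparison, and 2 had an unadjusted p under 0.05 in IRF8KO against WT, 1 in IRF4/8DKO against WT and 1 between the knockout genotypes. The shares over all probe sets were again 13.5%, 9.05% and 8.52%. Mgl2, the close relative of Clec10a, read 196 and 533 in IRF4/8DKO, 186 and 386 in IRF8KO, and 18.2 and 112 in WT. Every knockout array lay above both WT arrays, at a log2 difference of 2.50 ± 0.76 SE in IRF4/8DKO against WT (limma adjusted p = 0.322) and 2.23 ± 0.76 SE in IRF8KO against WT (limma adjusted p = 0.264). Clec11a, a secreted growth factor gene for blood cells, lay at 0.91 ± 0.45 SE and Clec1b, the podoplanin receptor gene of platelets, at -0.86 ± 0.41 SE in IRF8KO against WT. Cd207 (langerin) read 16.75 and 3.29 in IRF4/8DKO, 30.16 and 30.63 in IRF8KO, and 5.9 and 13.39 in WT. It passed the filter only through the IRF8KO arrays, where it was highest. Its log2 difference was 1.05 ± 0.44 SE in IRF8KO against WT and -1.08 ± 0.44 SE in IRF4/8DKO against IRF8KO. Both differences are among those counted under 0.05, and they support nothing by themselves. Clec2d lay at 1.54 ± 0.76 SE, Ly75 (DEC-205) at -0.98 ± 0.60 SE and Mrc1 (the mannose receptor) at 0.69 ± 0.43 SE in IRF4/8DKO against WT. Clec2d read 39.19 and 131.14 in IRF4/8DKO, 9.27 and 90.16 in IRF8KO, and 19.57 and 17.08 in WT. As it passed the filter only through knockout arrays, its difference supports nothing by itself. Cd209d lay at -0.64 ± 0.46 SE and Olr1, the receptor gene for oxidised lipoprotein, at 0.42 ± 0.52 SE in IRF4/8DKO against IRF8KO.

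Marker lists of other cells differed between the genotypes in both directions. Of 9 monocyte and macrophage markers 7 were tested and all 7 had higher means in both knockout genotypes than in WT. Of them 4 passed the limma test in IRF4/8DKO against WT (Cd14, Ccr2, Mpeg1 and Adgre1), where 0.299% of all tested probe sets did. In IRF8KO against WT 0 passed, beside 0.0302% of all. There 4 had an unadjusted limma p under 0.05, beside 13.5% of all. Cd14 passed the filter only through the IRF4/8DKO arrays, at 84.39 and 123.48. It read 12.96 and 13.95 in IRF8KO, and 10.26 and 9.72 in WT. The summed intensity of the list was 19432 and 25827 in IRF4/8DKO, 16532 and 18626 in IRF8KO, and 8944 and 9338 in WT, with Cx3cr1 below the filter. The neutrophil list summed to 20723 and 42545 in IRF4/8DKO, 25288 and 44065 in IRF8KO, and 12398 and 29882 in WT. Mmp8 was called higher in IRF4/8DKO against WT. It read 11.65 and 10.19 in WT and passed the filter only through knockout arrays. The eosinophil, basophil and mast cell list summed to 478 and 505 in IRF4/8DKO, 3908 and 1716 in IRF8KO, and 12009 and 7431 in WT. Of its 6 genes 4 were called lower in IRF4/8DKO against WT (Cpa3, Gata2, Ms4a2 and Prg2). Beside this, 0.299% of all tested probe sets were called in either direction. Erythroid and megakaryocyte markers summed to 279.9 and 242 in IRF4/8DKO, 1546 and 670.2 in IRF8KO, and 7672 and 2712 in WT, with Pf4 called lower in IRF4/8DKO against WT. The B cell sum lay between 76.8 and 132 on all arrays, with Pax5 below the filter. The T and NK cell sum lay between 730.5 and 2043, with Cd3e, Cd3g and Ncr1 below the filter. Dendritic cell markers summed to 813 and 1364 in IRF4/8DKO, 1194 and 2180.1 in IRF8KO, and 2034 and 1290.4 in WT, with Xcr1, Batf3 and Siglech below the filter. Cd74 and H2-Aa were called lower in IRF4/8DKO against WT. Of the 7 dendritic cell markers tested, 4 lay above 0 and 3 below in that comparison, with a median log2 difference of 0.14. H2-Ab1 lay at 0.14 ± 0.53 SE there. The part of these markers in the members' values was not tested. In sorted bulk cells, more cells of a type and more RNA per cell cannot be told apart.

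**Figure D4:**
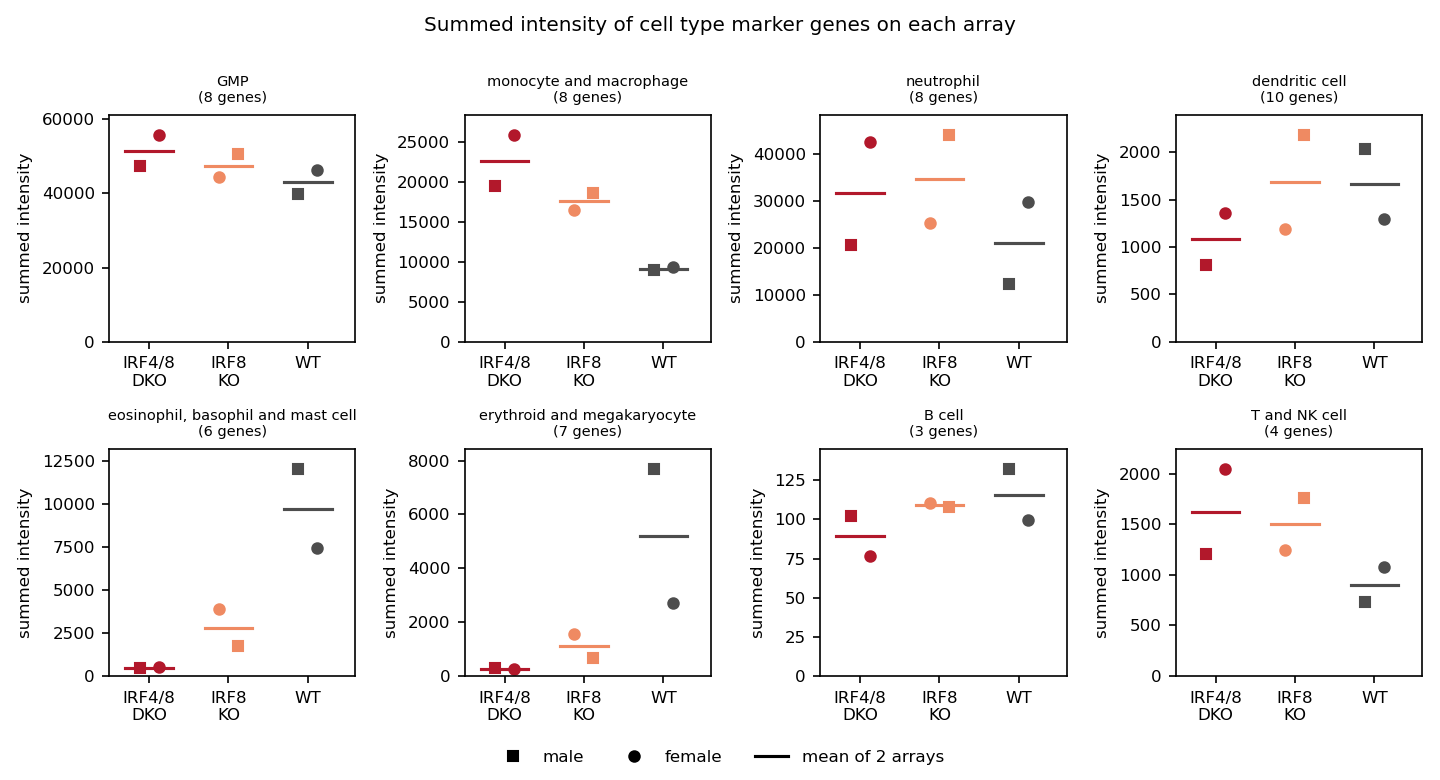
Summed intensity in arbitrary units (linear axis from 0) of 8 lists of cell type markers on each array, 1 probe set per gene, with squares for male and circles for female mice and bars at the mean of 2 arrays. The monocyte and macrophage sum lies at 16532 to 25827 on the 4 knockout arrays and at 8944 and 9338 in WT.

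Clec4d had the highest mean of log2(intensity + 10.5) among the tested member probe sets, at 9.12 beside 9.11 for the first Clec4a2 probe set, while by mean intensity Clec5a (741.8) and that Clec4a2 probe set (693) stood above Clec4d (556). Levels of different probes are not comparable, and this order served only to pick the gene. For Clec4d the genes with the most similar profile over the 6 arrays were 4933440N22Rik (Pearson r = 0.996), Kpna4 (0.990), Minar2 (0.988), Zc3h7b (0.986) and 2810013P06Rik (0.986), out of 13260 genes ranked. The points are 6 arrays of 3 genotypes and share the authors' normalization, and no member of the family was among those ranked. These genes, like Clec4d, read lowest on the IRF8KO female array.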

How the data were processed

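GMPs of 3 genotypes were measured on Affymetrix Mouse Genome 430 2.0 arrays, 2 per genotype. Per the series' design text, the authors normalized the arrays and computed the deposited intensity values in dChip 1.3 from differences of perfect-match and mismatch probes. No source used here gives the normalization method, the baseline array or the treatment of low values. Values ran from 0.69 to 16563.28, with none at or below 0.

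Probe sets were named from GEO's platform annotation (34945 with 1 symbol, 932 with several and 9160 with none), and those with several symbols were not named. Intensities were transformed to log2(value + 10.5), the pseudocount being their 25th percentile, and 29783 of 45037 probe sets passed the filter. A single limma model (version 3.58.1, R 4.3.3) held all 3 genotypes (empirical Bayes with a variance trend, no covariates), with Benjamini-Hochberg adjustment over all probe sets kept. Errors are SE of that fit unless given as SD. The p-values measure the spread between these samples, and the 3 comparisons share arrays. A gene of a list is represented by its tested probe set with the highest mean. The fit was tested on simulated data.

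The members and all lists were chosen with earlier results of these data known. Text names follow a rule. All members were named, and the list genes past the threshold or with the 4 lowest adjusted p per list and comparison. The 5 genes most correlated with the tested member probe set of highest mean log2 value were also named. Marker genes named were those called or below the filter. Outside that rule, Mpo, Cd34 and Fcgr3 were named after their values were seen, and H2-Ab1 was named too. Alternatives were pseudocounts of 3.9 and 39.23, no filter or the 60th percentile, median centring or quantile normalization, a fit without the variance trend, fitting 2 genotypes alone, sex, age or replicate number in the model, and leaving out each array. Promoter bases came from RefSeq (GRCm38.p6).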

Additional observations from a re-analysis of the deposited data

Results flagged for a closer look

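With 1 array per sex and genotype, male and female differences had opposite signs for 4 member values, and the difference between the sexes was not tested. Clec10a lay at -0.001 between the males and 0.377 between the females in IRF8KO against WT (log2 difference). Clec4d lay at -0.155 and 0.026 in IRF4/8DKO against WT, in the same order of sexes. For Clec4a2, 1422013_at lay at 0.153 and -0.051 in IRF4/8DKO against IRF8KO, and 1425406_at at 0.794 and -0.184 in IRF8KO against WT. No genotype had enough arrays to look for outlying samples.

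A further probe set lists a member together with another gene in the annotation and was left out of the family for that reason. It read 1187 and 3374 in IRF4/8DKO, 730.4 and 1654 in IRF8KO, and 139.9 and 309 in WT, with means of 2280.5, 1192.4 and 224.7. All 4 knockout arrays lay above both WT arrays. Its log2 difference was 3.20 in IRF4/8DKO against WT (limma adjusted p = 0.103) and 2.34 in IRF8KO against WT (limma adjusted p = 0.174).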

How the results depend on the processing

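Of 27 member differences, 22 kept their sign under all alternatives run, and 8 of 456 recomputed values changed sign, none of them past the threshold. Clec10a in IRF8KO against WT was -0.068 without WT replicate 1 and -0.257 without IRF8KO replicate 1, and in IRF4/8DKO against IRF8KO -0.095 without IRF8KO replicate 2. Clec4a2 by 1425406_at in IRF8KO against WT was -0.179 without WT replicate 1, and by 1422013_at in IRF4/8DKO against IRF8KO -0.111 without IRF8KO replicate 2 and -0.009 without IRF4/8DKO replicate 2. Clec4d in IRF4/8DKO against WT was 0.052 without WT replicate 1 and 0.157 with median centring. The cause was not tested. Over the arrays left out in turn these differences ran from -0.257 to 0.633 and from -0.095 to 0.795 for Clec10a, from -0.179 to 0.789 and from -0.111 to 0.213 for Clec4a2, and from -0.18 to 0.052 for Clec4d, in the order of naming. The second Clec4e probe set was not kept by the filter at the 60th percentile.

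Member probe sets called, 0 as reported, were 1 in IRF8KO against WT with the replicate block and 0 to 1 when 1 array was left out. In IRF4/8DKO against WT they were 2 with only these genotypes fitted, 1 with age, 3 with the replicate block and 0 to 2 when 1 array was left out. In IRF4/8DKO against IRF8KO they were 0 under every alternative run. The calls gained were of Clec4a2 and Clec5a, those gained by leaving out an array being of Clec4a2 without an IRF8KO array. The lowest adjusted p over the alternatives was 0.0143 for Clec4a2 by 1425406_at and 0.0297 for Clec5a, both in IRF4/8DKO against WT, and the highest was 0.882 and 1.

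Over all probe sets, the 9 calls of IRF8KO against WT became 21 and 5 with the low and high pseudocount, 5 without a filter, 17 with the 60th percentile, 30 with quantile normalization, 5 without a variance trend, 2 with only these genotypes or with sex, 136 with age, 209 with the replicate block, and 0 to 1090 without 1 array. The 89 of IRF4/8DKO against WT became 13 without a filter, 45 with median centring, 27 without a trend, 476 with only these genotypes, 0 with sex, 229 with age, 216 with the replicate block, and 0 to 484 without 1 array. The 0 of IRF4/8DKO against IRF8KO (2538 at an unadjusted p under 0.05) became 2 with age, 1 with the replicate block, and 0 to 200 without 1 array. The 1090 and 200 came without IRF8KO replicate 1 and the 484 without IRF8KO replicate 2, while both comparisons against WT gave 0 without either WT array. Where a genotype kept 1 array, that array was assumed to vary like the other genotypes. The share of calls that were higher was 33.3% in IRF8KO against WT, 43.3% with quantile normalization, 50% with median centring, 52.4% with the low pseudocount and 70.6% with the 60th percentile. It was 30.3% in IRF4/8DKO against WT, 42.2% with median centring, 40.7% without a trend and 53.8% without a filter. Median centring put the median log2 difference of all tested probe sets at 0.082 in IRF8KO against WT and 0.181 in IRF4/8DKO against WT. Same-numbered arrays deviated together at r = 0.041 (IRF8KO and WT), 0.187 (IRF4/8DKO and WT) and 0.211 (IRF4/8DKO and IRF8KO) across probe sets. For arrays of the same sex r was -0.041, 0.187 and -0.211 in the same order. With 2 arrays per genotype these are the same values by construction, with the sign turned where same-numbered arrays differed in sex. They are no second measurement for any pair. Same-numbered IRF4/8DKO and WT arrays were also of the same sex, so number and sex cannot be told apart for that pair. Replicate 1 of IRF8KO and of WT also shared an age of 12 weeks.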
